A study of Mus musculus with 9 samples.

Results

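The transcripts of 9 genes for CC chemokines, Ccl2, Ccl3, Ccl4, Ccl5, Ccl6, Ccl7, Ccl9, Ccl12 and Ccl22, were compared between macrophages that differ in C/EBPδ. They were picked by symbol, with their values in these libraries known, out of 55487 Ensembl gene identifiers, and all 9 were found. RNA came from unstimulated RAW264.7 cells, a macrophage line derived from a mouse tumour, with 3 libraries each of wild-type, knock-out and ΔTAD macrophages. C/EBPδ, the product of Cebpd, is a basic leucine zipper transcription factor that binds promoters of many inflammatory genes. ΔTAD macrophages carry a homozygous CRISPR/Cas9 deletion that removes the transactivation domain of C/EBPδ in frame. Knock-out macrophages come from the same editing, but in these clones the deletion shifted the reading frame. Both edited genotypes were grown from single sorted cells, and no label ties a library to a clone. The p-values below therefore measure only the spread between these libraries, which may be technical.

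CC chemokines are small secreted proteins that guide leukocytes along a gradient by way of G protein-coupled receptors, most of them named Ccr. Macrophages are a major source, and many of these genes are strongly induced by bacterial products through NF-κB, AP-1 and C/EBP factors. Ccl2, Ccl7 and Ccl12 are monocyte chemoattractants that signal through Ccr2. Ccl3, Ccl4 and Ccl5 attract monocytes and T cells, and Ccl3 and Ccl5 are ligands of Ccr1. Ccl6 and Ccl9 are rodent chemokines of myeloid cells that act on Ccr1, and Ccl22 attracts T cells that carry Ccr4.

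Of the 9 genes, 8 lie on chromosome 11 of GRCm38 in a pair of clusters. Ccl2 (positions 82035571 to 82037453), Ccl7 (82045712 to 82047525) and Ccl12 (82101845 to 82103400) lie on the plus strand in a stretch of 270.12 kb that also holds Ccl1, Ccl8 and Ccl11. The other cluster begins 1220.1 kb further on and spans 138.91 kb, with Ccl5 (83525778 to 83530518), Ccl9 (83572919 to 83578636), Ccl6 (83587882 to 83593087) and Ccl3 (83647844 to 83649355) on the minus strand and Ccl4 (83662584 to 83664683) on the plus strand. Ccl22 lies apart from them on chromosome 8 (94745590 to 94751699, plus strand). No run of 50 bases, the read length, was shared with another gene for 8 of the 9 genes, and for Ccl9 it was 59 of 2996 runs. Gm17268 overlaps Ccl2 on the opposite strand and had 0 counts, and E230016K23Rik overlaps Ccl6 in the same way and had at most 10 counts in a library, so the low counts of Ccl6 are uncertain if reads were counted without strand.

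RefSeq promoters (GRCm38.p6) were matched for 5 of the 9 genes, namely Ccl3, Ccl6, Ccl9, Ccl12 and Ccl22, and not for Ccl2, Ccl4, Ccl5 and Ccl7. The 250 bases before the start of Ccl3 (chr11:83649379-83649628, minus strand) and of Ccl9 (chr11:83578637-83578886, minus strand) are shown because these genes made up most of the CC chemokine transcripts, and both are read 5′ to 3′. Capitals mark matches on either strand to the motifs searched, which were chosen after the values were seen.
Ccl3: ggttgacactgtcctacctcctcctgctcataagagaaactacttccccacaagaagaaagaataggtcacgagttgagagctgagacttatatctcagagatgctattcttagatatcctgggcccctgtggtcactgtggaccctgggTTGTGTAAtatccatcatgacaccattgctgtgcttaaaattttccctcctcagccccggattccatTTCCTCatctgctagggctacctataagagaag
Ccl9: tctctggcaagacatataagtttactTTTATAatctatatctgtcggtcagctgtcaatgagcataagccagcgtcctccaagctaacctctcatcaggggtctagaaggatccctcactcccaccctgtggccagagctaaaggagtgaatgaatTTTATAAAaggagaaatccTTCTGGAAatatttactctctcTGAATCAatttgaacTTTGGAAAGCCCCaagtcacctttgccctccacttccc

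The C/EBP motif TTNNGNAA was found in the promoter of Ccl3, 100 bases before the start, and in that of Ccl9, 75 and 38 bases before the start. It stood in 36.8% of the 32851 promoters of this length in the table, so that a match is common. The NF-κB motif (3 G, 2 free positions, 3 T and 2 C) was in 1.41% of all promoters and matched Ccl9 on the opposite strand, where it overlaps the C/EBP match nearest to the start. The AP-1 motif TGANTCA (6.75% of all promoters) also matched Ccl9, 53 bases before the start. TATAAA (12.4%) was found in Ccl9 and Ccl12, and GAGGAA, the core bound by PU.1 (23.3%), in Ccl3 and Ccl12. CCAAT (33.9%) was in 0 of these 5 windows. These matches describe letters and are no evidence of binding.

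The libraries held 16113306 to 20981829 reads on genes, and 14312 genes had enough counts to be tested. A count of 3, taken as the floor of detection, is 0.143 to 0.210 CPM, the unit used here for counts brought to the same library size with the trimmed mean of M-values (TMM). Cebpd lay between 6.11 and 7.28 CPM in wild-type, 5.21 and 5.60 CPM in knock-out and 4.89 and 6.18 CPM in ΔTAD macrophages. Its deletion leaves most of the transcript in place, so this level does not check the labels. ΔTAD replicate 1 stood apart from the other ΔTAD libraries, with a chi-square per degree of freedom of 150 against either of them and of 2.01 to 4.18 in all other pairs within a genotype. In that library 11% of the counts fell on CT010467.1, against 1.15% and 1.16% in the other ΔTAD libraries. Log2 fold changes of ΔTAD against wild-type macrophages without ΔTAD replicate 1 are given for Ccl2, Ccl3, Ccl4, Ccl6 and Ccl9. Of 10 macrophage markers 9 were tested, and their summed level was 3494 to 3682 CPM in wild-type, 4608 to 4990 CPM in knock-out and 7119 to 7296 CPM in ΔTAD macrophages. Of the 9, 6 rose and 1 fell in knock-out and 7 rose and 1 fell in ΔTAD macrophages by edgeR's test. By the same test, 22.8% of all genes rose and 22.4% fell in knock-out, and 26.3% rose and 23.4% fell in ΔTAD macrophages. Much of the sum was Lyz2, at 1166 ± 61.9 CPM in wild-type, 2112 ± 145 CPM in knock-out and 4187 ± 76.5 CPM in ΔTAD macrophages (SD, n = 3 each). The 1 that fell was Fcgr1, at 39.4 ± 1.35, 17.8 ± 1.97 and 28.9 ± 2.51 CPM in the same order. Markers of T cells, B cells, fibroblasts, epithelial cells and mast cells summed to at most 0.288 CPM per list and library, those of neutrophils to at most 1.43 CPM, with Cd3e, Ms4a1, Col1a2, Epcam and Cpa3 at 0 counts. The dendritic cell list moved with genotype through Itgax, with sums of 15.8 to 17.3 CPM in wild-type, 6.85 to 9.06 CPM in knock-out and 6.28 to 6.92 CPM in ΔTAD macrophages, while Flt3 was at 0 counts. The part of these marker changes in the chemokine results was not tested. In RNA of whole cultures, fewer cells making a transcript and less of it per cell cannot be told apart.

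Of the monocyte chemoattractants, Ccl2 was well expressed in wild-type macrophages and nearly lost in both edited genotypes. Wild-type macrophages gave 763, 584 and 533 counts, knock-out macrophages 8, 16 and 14 and ΔTAD macrophages 6, 12 and 9. These counts corresponded to 38.0, 33.8 and 32.2 CPM in wild-type, 0.421, 0.966 and 0.792 CPM in knock-out and 0.419, 0.576 and 0.428 CPM in ΔTAD macrophages. The lowest wild-type library thus lay far above the highest edited one, while knock-out and ΔTAD libraries overlapped. Relative to wild-type macrophages the log2 difference was −5.59 (standard error 0.146) in knock-out and −6.16 (0.155) in ΔTAD macrophages, or −6.12 without ΔTAD replicate 1. Knock-out minus ΔTAD macrophages gave 0.57 (0.377).

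Ccl7, the neighbour of Ccl2, was low throughout and followed the same course. It had 13, 16 and 16 counts in wild-type macrophages, 0, 1 and 0 in knock-out macrophages and 0 in all 3 ΔTAD libraries. Against the floor of 3 counts over the group, the ΔTAD level was at least 15.6-fold lower than the wild-type level. The 45 wild-type counts against 1 knock-out count gave a ratio of 44.4, with an exact 95% counting interval of 7.58 to 1793. Such intervals and floors cover counting error only. Ccl12 had 1 count in wild-type replicate 3 and 0 in the other libraries, so no fold is given for it.

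Ccl3, which encodes macrophage inflammatory protein 1α, had the highest level per kb of the 9 genes in every genotype. It reached 1218, 1093 and 1112 CPM in wild-type, 912, 1000.2 and 957 CPM in knock-out and 302, 316 and 312 CPM in ΔTAD macrophages. The genotypes did not overlap, and ΔTAD macrophages lay far below both others. The log2 fold change was −0.25 (standard error 0.0381) in knock-out and −1.88 (0.0395) in ΔTAD against wild-type macrophages, and the last was −1.89 without ΔTAD replicate 1. The knock-out level was 3.09-fold the ΔTAD level.

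Ccl4, which encodes macrophage inflammatory protein 1β and lies next to Ccl3 on the opposite strand, differed mainly in ΔTAD macrophages. Its levels were 288, 260 and 267 CPM in wild-type, 246, 280 and 252 CPM in knock-out and 84.4, 92.9 and 95.6 CPM in ΔTAD macrophages. Wild-type and knock-out libraries overlapped, and every ΔTAD library lay below them. Its log2 fold change was −0.07 (standard error 0.0488) in knock-out and −1.57 (0.0514) in ΔTAD macrophages, or −1.55 without ΔTAD replicate 1. Knock-out exceeded ΔTAD macrophages by 1.51 (0.0514).

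Ccl5 (RANTES), in contrast to its abundant neighbours, was close to the limit of detection and highest in knock-out macrophages. It had 15, 21 and 6 counts in wild-type, 25, 38 and 44 in knock-out and 11, 10 and 18 in ΔTAD macrophages. The scaled knock-out level was 2.03 ± 0.629 CPM, against 0.775 ± 0.426 CPM in wild-type and 0.701 ± 0.197 CPM in ΔTAD macrophages (SD, n = 3 each). Knock-out exceeded wild-type macrophages by 1.37 log2 units (standard error 0.328), a difference that was 1.18 and no longer past the threshold (an adjusted p-value under 0.01) without knock-out replicate 3. In ΔTAD against wild-type macrophages the difference was −0.16 (0.402), with overlapping libraries and a sign that turned without wild-type replicate 2 (0.28) or without ΔTAD replicate 2 (0.07). Knock-out against ΔTAD macrophages gave 1.53 (0.333).

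Ccl9, the second abundant transcript of the cluster, declined in steps from wild-type over knock-out to ΔTAD macrophages. Its levels were 1129, 1143 and 1088 CPM in wild-type, 795, 815 and 859 CPM in knock-out and 525, 538 and 544 CPM in ΔTAD macrophages. No libraries of different genotypes overlapped. Relative to wild-type macrophages the log2 difference was −0.44 (standard error 0.0320) in knock-out and −1.06 (0.0323) in ΔTAD macrophages, the latter −1.08 without ΔTAD replicate 1. Between knock-out and ΔTAD macrophages the step was 0.62 (0.0322).

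Ccl6, which lies between Ccl9 and Ccl3, was barely detected. It had 27, 15 and 11 counts in wild-type, 6, 5 and 12 in knock-out and 4, 11 and 15 in ΔTAD macrophages, and the libraries of all genotypes overlapped. Its log2 fold change of −1.17 (standard error 0.400) in knock-out macrophages did not pass the threshold, but passed it without wild-type replicate 3 (−1.36) or without knock-out replicate 3 (−1.65). In ΔTAD macrophages it was −0.87 (0.377), or −0.68 without ΔTAD replicate 1. The T cell attractant Ccl22 had 1, 1 and 2 counts in wild-type, 1, 1 and 4 in knock-out and 1, 3 and 0 in ΔTAD macrophages, at the floor in nearly all libraries, and no fold is given for it.

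**Figure D1:**
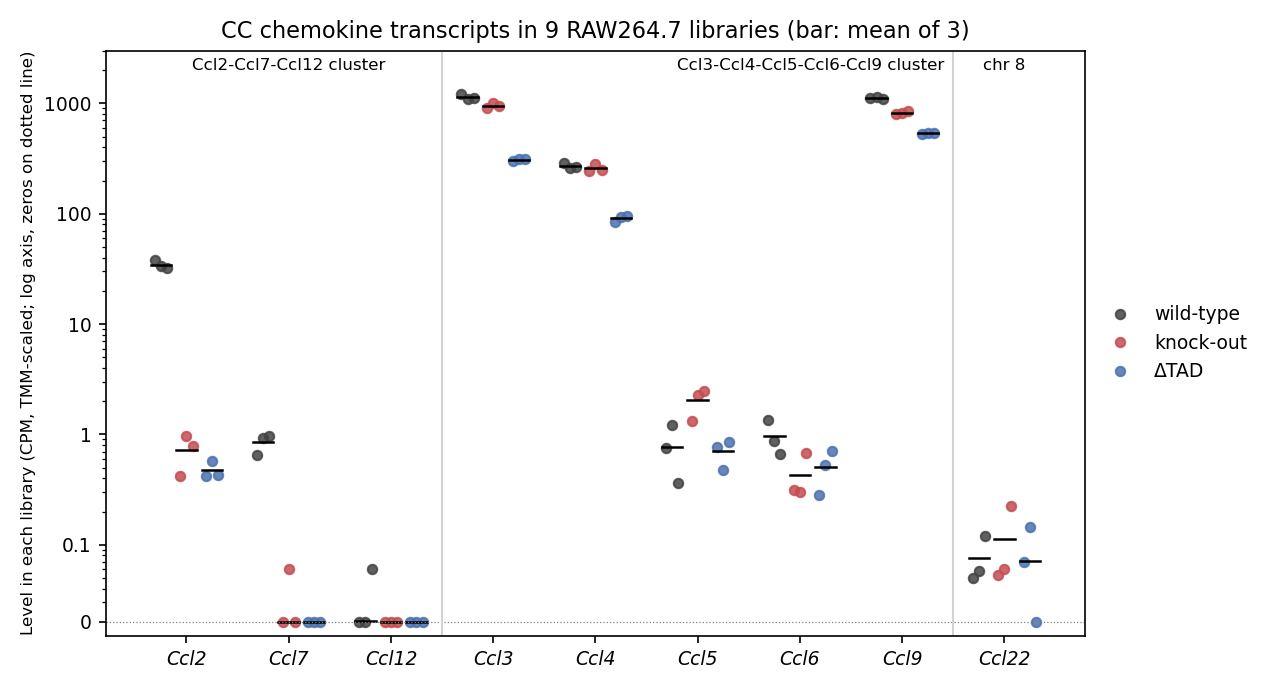
Level of each of the 9 CC chemokine genes in each library, in CPM scaled by TMM on a log axis, with a point per library and a bar at the mean of the 3 libraries of a genotype. Values of 0 are placed on the dotted line, on which means close to 0 fall as well. Ccl2 drops from 32.2 to 38.0 CPM in wild-type to under 1 CPM in all edited libraries, while Ccl3, Ccl4 and Ccl9 stay abundant and are lowest in ΔTAD macrophages.

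A gene was called different where the adjusted p-value of edgeR's quasi-likelihood test was under 0.01, and 7 of the 9 genes had enough counts to enter this test. Ccl12 and Ccl22 did not. Ccl7 entered through its wild-type libraries alone, so against wild-type macrophages only a lower call was open to it. Ccl6 would also not have passed the filter on its edited libraries alone, so a higher call against wild-type macrophages was hardly open to it. In knock-out against wild-type macrophages, Ccl5 was called higher, Ccl2, Ccl7, Ccl3 and Ccl9 were called lower, and Ccl4 and Ccl6 were not called, where 45.2% of all genes tested were called (22.8% higher and 22.4% lower). In ΔTAD against wild-type macrophages, 5 genes were called lower, 0 higher and 2 (Ccl5 and Ccl6) not, where 49.7% of all genes were called (26.3% higher and 23.4% lower). In knock-out against ΔTAD macrophages, Ccl3, Ccl4, Ccl5 and Ccl9 were called higher, 0 lower and 3 not, where 33.0% of all genes were called (13.9% higher and 19.1% lower). Libraries of the genotypes did not overlap for 1 gene higher and 4 lower in knock-out (59.7% of all genes tested, 30.0% higher and 29.7% lower), for 5 lower in ΔTAD (63.1%, 32.4% and 30.7%) and for 4 higher in knock-out against ΔTAD macrophages (52.8%, 23.1% and 29.6%). Where 0 genes were called, DESeq2 and limma-voom also called 0, and edgeR gave 0 at an unadjusted p under 0.05. The 9 genes were chosen on these same values, so the counts are a description. The contrasts share libraries, and those with wild-type macrophages share the wild-type group.

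The summed levels of the clusters differed in which genotype stood out. Summed over Ccl2, Ccl7 and Ccl12, the level was 35.5 ± 2.79 CPM in wild-type, 0.747 ± 0.305 CPM in knock-out and 0.474 ± 0.0879 CPM in ΔTAD macrophages (SD, n = 3 each), 47.6 and 74.9 times lower in the edited genotypes. Summed over Ccl3, Ccl4, Ccl5, Ccl6 and Ccl9, it was 2534 ± 90.2, 2041 ± 75.8 and 938 ± 22.2 CPM, 1.24 and 2.70 times lower. Both edited genotypes had thus lost most of the Ccl2 cluster transcripts, whereas the Ccl3 cluster kept 80.6% of the wild-type level in knock-out and 37.0% in ΔTAD macrophages. The sum of the Ccl2 cluster was nearly all Ccl2, at 34.7 CPM in wild-type macrophages. The sum of the Ccl3 cluster was nearly all Ccl3, Ccl9 and Ccl4. Of its low genes, Ccl5 was called higher in knock-out macrophages, and Ccl6 was called in neither edited genotype. Ccl3 exceeded Ccl2 by 5.04 ± 0.0572 log2 units in wild-type macrophages, by 10.2 ± 0.466 in knock-out and by 9.06 ± 0.186 in ΔTAD macrophages. The median log2 fold change of the 5 genes of the Ccl3 cluster was −0.25 in knock-out and −1.06 in ΔTAD against wild-type macrophages, and 1.51 in knock-out against ΔTAD macrophages. For Ccl2 and Ccl7 the values were −5.31, −6.55 and 1.23, the last 0.16 without knock-out replicate 2, and with Ccl7 at its bound of −3.97 the ΔTAD median was −5.06. Over all genes tested the medians were −0.00, −0.00 and −0.03.

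**Figure D2:**
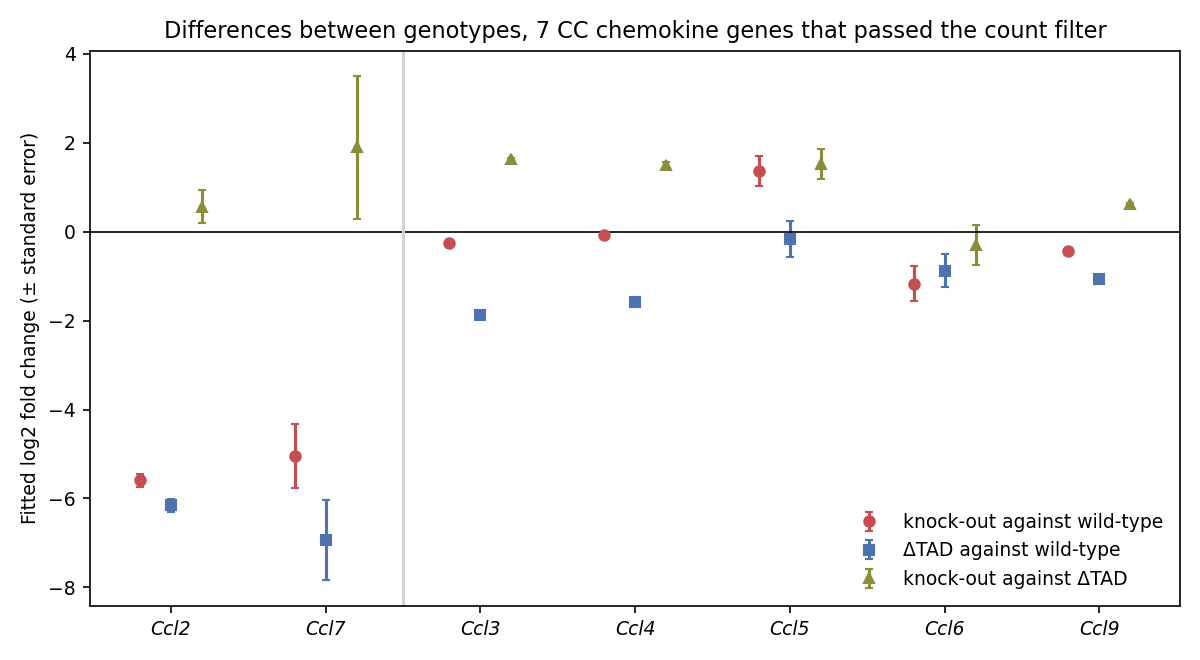
Fitted log2 fold changes with standard errors of the 7 CC chemokine genes that passed the count filter, in knock-out against wild-type (circles), ΔTAD against wild-type (squares) and knock-out against ΔTAD macrophages (triangles). Ccl2 and Ccl7, left of the grey line, lie near or below −5 in both edited genotypes. In the other cluster, Ccl3, Ccl4 and Ccl9 lie between −0.44 and −0.07 in knock-out and between −1.88 and −1.06 in ΔTAD macrophages. The fitted values of Ccl7 rest on counts of 0 and are no bounds.

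The pool of CC chemokine transcripts fell mostly on 3 genes. All 9 genes summed to 2569 ± 93.0 CPM in wild-type, 2042 ± 76.1 CPM in knock-out and 939 ± 22.2 CPM in ΔTAD macrophages, or 79.5% and 36.5% of the wild-type level. Ccl3 made up 44.4 ± 1.19% of this sum in wild-type macrophages, 46.8 ± 0.755% in knock-out macrophages and 33.0 ± 0.263% in ΔTAD macrophages. Ccl9 made up 43.6 ± 1.47%, 40.3 ± 1.35% and 57.1 ± 0.403% in the same order. In ΔTAD macrophages Ccl9 was thus the larger part, with 1.73 ± 0.0207 CPM per CPM of Ccl3, against 0.984 ± 0.0596 in wild-type and 0.861 ± 0.0425 in knock-out macrophages. Ccl4 made up 10.6 ± 0.262%, 12.7 ± 0.600% and 9.69 ± 0.397%, highest in knock-out macrophages. In ΔTAD macrophages Ccl3 and Ccl4, the genes of the macrophage inflammatory proteins 1, stayed closer to their wild-type ratio than Ccl9 and Ccl3 did. In knock-out macrophages they did not. Ccl3 was at 4.20 ± 0.0333 times Ccl4 in wild-type macrophages, 3.70 ± 0.114 times in knock-out and 3.41 ± 0.153 times in ΔTAD macrophages. Ccl2 made up 1.35 ± 0.0668% of the pool in wild-type macrophages and 0.0353 ± 0.0125% and 0.0505 ± 0.00885% in the edited genotypes.

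**Figure D3:**
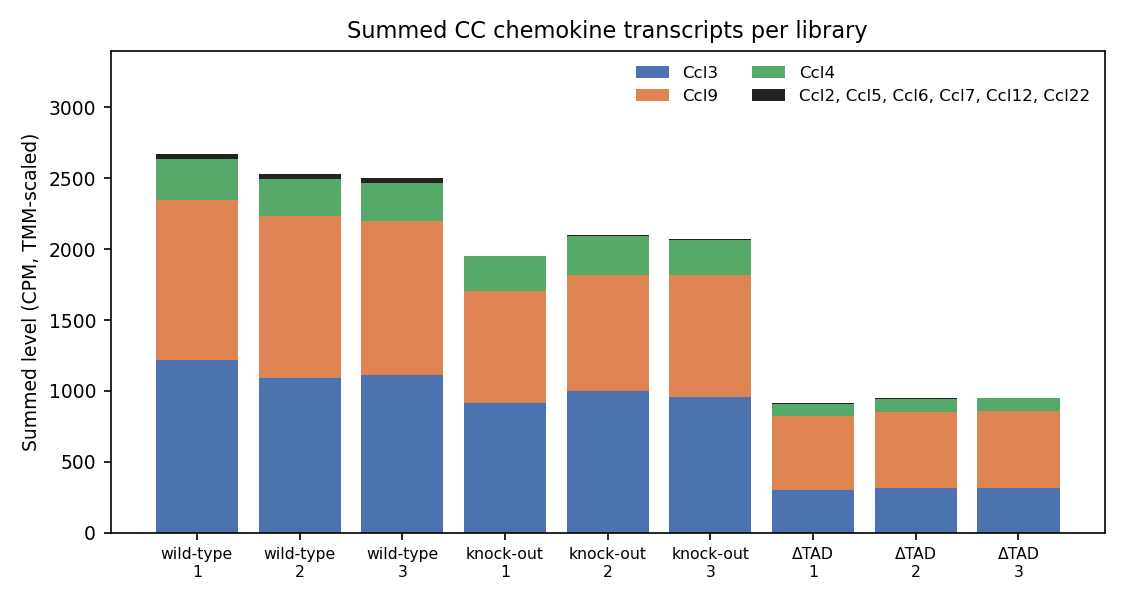
Summed level of the 9 CC chemokine genes in each of the 9 libraries, as stacked bars in CPM scaled by TMM, with Ccl3, Ccl9, Ccl4 and the other 6 genes as parts. The sums lie between 2501 and 2675 CPM in wild-type, 1955 and 2099 CPM in knock-out and 913 and 954 CPM in ΔTAD libraries, with Ccl9 the largest part of each ΔTAD bar.

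Per kilobase of annotated exon, Ccl3 came first in every genotype, and the order below it shifted. In wild-type macrophages Ccl3 led with 1489 ± 88.0 CPM per kb, ahead of Ccl4 (411 ± 21.9), Ccl9 (368 ± 9.46) and Ccl2 (30.5 ± 2.62), and no neighbours among these overlapped. Ccl7, Ccl5 and Ccl6 came next with 1.06, 0.807 and 0.534 CPM per kb and overlapped each with the next, as did Ccl12 and Ccl22 at the bottom. In knock-out macrophages the first 3 kept their order, at 1249 ± 57.3, 392 ± 27.5 and 270.3 ± 10.8 CPM per kb. The fourth place passed from Ccl2 to Ccl5 (2.12 ± 0.655), whose libraries did not overlap those of Ccl2 (0.638 ± 0.244). In ΔTAD macrophages Ccl3 (405 ± 9.53) was followed by Ccl9 (176 ± 3.13) and only then by Ccl4 (138 ± 8.81), while Ccl5, Ccl2 and Ccl6 overlapped in turn below 1 CPM per kb. Among 14294 tested genes with an exon length, Ccl3 held rank 10 per kb in wild-type macrophages, rank 15 in knock-out and rank 65 in ΔTAD macrophages. Ccl2 fell in rank from 1772 to 12455 and 12860.

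The rest of the family was almost silent. Of 23 genes named Ccl with a number, 14 are not among the 9, and 12 of these had 0 counts in all 9 libraries, which allows up to 0.210 CPM in the shallowest. Ccl28 had at most 1 count in a library. Only Ccl25, a ligand of Ccr9 known from thymus and gut, was tested. Its level was 15.5 ± 1.05 CPM in wild-type, 16.3 ± 1.09 CPM in knock-out and 11.4 ± 1.28 CPM in ΔTAD macrophages (SD, n = 3 each). In ΔTAD macrophages it fell by 0.45 on the log2 scale (standard error 0.0915, edgeR's quasi-likelihood test, adjusted p = 0.000176), whereas in knock-out macrophages it differed by 0.08 (0.0865, adjusted p = 0.477 from the same edgeR test). Knock-out exceeded ΔTAD macrophages by 0.52 log2 units (edgeR, adjusted p = 5.38e-05, standard error 0.0908).

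Genes beside the clusters were described next to the chemokines. Within 500 kb of the Ccl2 cluster 19 other genes are annotated, but only 4 were tested, all of them beyond its end and none within 200 kb. Of these, 2 fell and 2 did not pass the test in knock-out macrophages, with log2 fold changes of −0.62 to −0.17, and 2 fell and 2 did not in ΔTAD macrophages (−0.65 to −0.12). Over all genes tested, 22.4% fell in knock-out and 23.4% in ΔTAD macrophages. The nearest of the 4 tested neighbours, Zfp830 at 459 kb, was at −0.17 (adjusted p = 0.0652, edgeR) in knock-out and −0.12 (adjusted p = 0.165, edgeR) in ΔTAD macrophages. The changes of Ccl2 and Ccl7 were thus far larger than those of any tested gene in this window.

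Around the Ccl3 cluster 21 of 53 annotated genes within 500 kb were tested. In knock-out macrophages 3 rose, 8 fell and 10 did not pass the test, with a median log2 fold change of −0.03, and in ΔTAD macrophages 2 rose, 10 fell and 9 did not, with a median of −0.18. The share called, 11 of 21 and 12 of 21, lay near the 45.2% and 49.7% over all genes tested. The share that fell, 8 and 10 of 21, lay above the 22.4% and 23.4% of all genes that fell. The share that rose, 3 and 2 of 21, lay below the 22.8% and 26.3% that rose. In knock-out against ΔTAD macrophages 5 were higher, 2 lower and 14 not called, where 13.9% of all genes were higher and 19.1% lower. The 2 became 1 without wild-type replicate 2, without knock-out replicate 1 or 2, or without any 1 of the ΔTAD libraries. Taf15, an RNA-binding protein gene 19.0 kb before Ccl5, was at −0.02 (adjusted p = 0.679, edgeR) in knock-out and fell by 0.17 on the log2 scale in ΔTAD macrophages (adjusted p = 0.000228, edgeR). Wfdc17, 39.3 kb beyond Ccl4, rose in both, by 1.12 and 1.46 on the log2 scale (adjusted p = 3.16e-05 and 2.72e-07, edgeR). The largest called changes in this window were −1.93 and −2.70 for Gas2l2 and 1.32 and 1.60 for Slfn2. Gas2l2 had 1.89 CPM in wild-type, 0.498 CPM in knock-out and 0.306 CPM in ΔTAD macrophages. It would not have passed the count filter on its edited libraries alone. A rise against wild-type macrophages was thus hardly open to Gas2l2, and its shared sign is no result. Beside Ccl22, 18 of 41 genes were tested, of which 2 rose and 7 fell in knock-out and 4 rose and 1 fell in ΔTAD macrophages. Of all genes tested, 22.8% rose and 22.4% fell in knock-out and 26.3% rose and 23.4% fell in ΔTAD macrophages. The nearest tested neighbours of Ccl22 were Arl2bp, which did not pass the test (−0.23 and −0.19), and Ciapin1, at −0.22 in knock-out (adjusted p = 4.14e-05, edgeR) and −0.02 in ΔTAD macrophages (adjusted p = 0.653, edgeR). Over the 1096 tested genes of chromosome 11 the median change was −0.03 for knock-out and 0.01 for ΔTAD macrophages.

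Of 14 CC chemokine receptors, which include scavenging receptors, 3 were tested, and the others had at most 14 counts in a library. Ccr1, a receptor of Ccl3, Ccl5, Ccl6 and Ccl9, fell from 1.69 ± 0.282 CPM in wild-type to 0.242 ± 0.0541 CPM in knock-out and 0.363 ± 0.0695 CPM in ΔTAD macrophages (SD, n = 3 each). Its log2 fold changes were −2.77 (adjusted p = 2.06e-07, edgeR) and −2.24 (adjusted p = 1.15e-06, edgeR). Ccr4, the receptor of Ccl22, had 25, 15 and 21 counts in wild-type, 1, 3 and 0 in knock-out and 3, 2 and 2 in ΔTAD macrophages, so that the edited libraries lay at or under the floor. It fell in both (adjusted p = 1.60e-06 and 4.47e-06, edgeR), with ratios of wild-type to edited level of 15.1 (exact 95% counting interval 5.59 to 57.0) and 9.08 (4.15 to 23.5). Ccr1 and Ccr4 entered the test through their wild-type libraries alone. Against wild-type macrophages only a fall could thus be called for them, and their p-values are a description. Ccr2, the receptor of Ccl2, stood at 2.61 ± 0.257 CPM in wild-type, 3.17 ± 0.293 CPM in knock-out and 1.12 ± 0.156 CPM in ΔTAD macrophages. It fell in ΔTAD (−1.23, adjusted p = 2.25e-05, edgeR) and did not pass the test in knock-out macrophages (0.29, adjusted p = 0.172, edgeR), and knock-out exceeded ΔTAD macrophages by 1.52 (adjusted p = 2.12e-06, edgeR).

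The next list held 29 genes for factors that act on CC chemokine promoters or for regulators of such factors, all tested. Of these, 21 rose, 2 fell and 6 did not pass the test in knock-out macrophages, and 19 rose, 4 fell and 6 did not in ΔTAD macrophages. Those that fell in both were Fosl1 (−0.50 and −1.10), a gene of AP-1, and Nfkbia (−0.44 and −0.18), the gene for an inhibitor of NF-κB. Over all genes tested, 22.8% rose and 22.4% fell in knock-out and 26.3% rose and 23.4% fell in ΔTAD macrophages. The median log2 fold changes of the 29 genes were 0.35 and 0.34. In knock-out against ΔTAD macrophages 8 were higher, 11 lower and 10 not called, where 13.9% of all genes were higher and 19.1% lower. The most changed in knock-out macrophages was Cebpa, a C/EBP factor of myeloid differentiation, with 3.04 ± 0.856 CPM in wild-type, 15.9 ± 1.54 CPM in knock-out and 12.4 ± 0.495 CPM in ΔTAD macrophages. It rose by 2.40 and 2.05 on the log2 scale (adjusted p = 1.25e-13 and 4.41e-12, edgeR). Fos, part of AP-1 and the most changed in ΔTAD macrophages, rose by 1.07 in knock-out and 2.39 in ΔTAD macrophages (adjusted p = 4.54e-11 and 5.87e-19, edgeR). Irf7, a factor of the interferon response, rose by 1.42 in knock-out macrophages (adjusted p = 1.42e-06, edgeR) and was at 0.02 in ΔTAD macrophages (adjusted p = 0.954, edgeR).

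Of 5 genes that act on the decay of chemokine mRNA, 2 rose and 2 fell in each edited genotype and 0 were called between the edited genotypes. Over all genes tested, 45.2% were called in knock-out, 49.7% in ΔTAD and 33.0% in knock-out against ΔTAD macrophages. Those called included Zfp36l2 (0.42 and 0.36) and Zc3h12a (0.36 and 0.39), which rose, and Zfp36l1 (−0.32 and −0.34), which fell. In knock-out against ΔTAD macrophages, edgeR, DESeq2 and limma-voom each called 0 of the 5 genes, and at an unadjusted p under 0.05 edgeR gave 1, Zfp36, the gene for tristetraprolin.

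Of 17 other inflammatory mediators 7 were tested, of which 4 rose and 1 fell in knock-out and 3 rose and 2 fell in ΔTAD macrophages, beside 22.8% and 22.4% of all genes in knock-out and 26.3% and 23.4% in ΔTAD macrophages. In knock-out against ΔTAD macrophages 4 were higher, 2 lower and 1 not called, where 13.9% of all genes were higher and 19.1% lower. Ptgs2, the inducible cyclooxygenase, resembled Ccl2 with 21.1 ± 0.358 CPM in wild-type, 0.986 ± 0.543 CPM in knock-out and 0.365 ± 0.216 CPM in ΔTAD macrophages (−4.42 and −5.73, adjusted p = 1.04e-16 and 1.24e-17, edgeR). It would not have passed the count filter on its edited libraries alone, so a rise against wild-type macrophages was hardly open to it. Its p-values are thus a description. Cxcl2, a neutrophil attractant, was lowest in ΔTAD macrophages, at 2.24 ± 0.133 CPM against 6.71 ± 0.708 CPM in wild-type (−1.58, adjusted p = 6.72e-10, edgeR). In knock-out macrophages it rose to 8.94 ± 0.463 CPM (0.41, adjusted p = 0.00242, edgeR). Cxcl16, a membrane-bound chemokine and scavenger receptor, went the other way from 0.512 ± 0.124 CPM to 9.92 ± 1.10 and 13.0 ± 0.428 CPM (4.24 and 4.62, adjusted p = 1.03e-15 and 4.47e-17, edgeR). It passed the count filter through its edited libraries, so a fall against wild-type macrophages was hardly open to it. Its p-values are a description as well.

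The genes whose course over the 9 libraries came closest to that of a CC chemokine were sought among 12698 genes whose mean reached 1 CPM, by the root mean square difference of log2 CPM centred on wild-type macrophages. For Ccl2 these were Cd86, a costimulatory ligand, at 0.354 log2 units and Ptpn5, a tyrosine phosphatase gene, at 0.456. Cd86 had 6.16 CPM in wild-type and 0 counts in all edited libraries, and Ptpn5 had 19.0, 0.449 and 0.301 CPM in wild-type, knock-out and ΔTAD macrophages. The log2 level of Cd86 in edited libraries is set by the prior count of 2. Its fall may be larger than that of Ccl2, and its distance to Ccl2 is uncertain. For Ccl9, the most abundant gene of the other cluster by its mean over all libraries, the genes most like it included the adhesion receptor gene Adgrl2 at 0.0581. Adgrl2 stood at 118, 83.4 and 59.3 CPM in the same order. None of these 3 genes lies on chromosome 11.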

How the data were processed

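RNA of RAW264.7 macrophages was depleted of ribosomal RNA and sequenced by the authors as 9 libraries (3 wild-type, 3 knock-out and 3 ΔTAD) of single reads. No label says whether these came from separate cultures. The authors' steps were trimming (Trimmomatic), alignment to GRCm38 (Hisat2) and counting per Ensembl gene (HTSeq). The submitters' processing notes name Trimmomatic 0.36, and the paper's methods name another version. The deposited values are counts, 1 list per library, without normalization or filter. Genes took 46.65% to 53.23% of each library's records, and 5 tally lines per list were left out. The strand setting of the counting is not given in the sources used here. Genotypes and replicate numbers were taken from the sample labels.

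The 9 genes, the lists of receptors, regulators, mediators and markers, and the rule for named genes were chosen with earlier results of these data known. The test was the quasi-likelihood test of edgeR 4.0.16 (R 4.3.3). Low genes were removed with filterByExpr (minimum count 10, minimum total count 15), libraries were scaled by TMM, and 1 model with a mean per genotype was fitted to the 9 libraries, whose common biological coefficient of variation was 0.0468. A gene was called at a p-value, adjusted by Benjamini-Hochberg over the 14312 genes tested, under 0.01, which the paper also used. For the 9 genes the fit gives log2 fold changes and standard errors as a description. Named beyond the 9 genes were the other genes of the family, called receptors, up to 3 called genes per list with the largest change, the nearest tested neighbours and the 2 neighbours with the largest called change, and the 2 genes most like Ccl2 and Ccl9 on log2 CPM (prior count 2). A gene that this rule names is not reported here, nor are some receptor and marker values. Nfkbia and Fosl1 were named outside this rule. Genes of the 4 lists numbered 65, of which 44 were tested. Positions and exon lengths come from the GENCODE annotation of GRCm38. The steps were tested on simulated data. Alternatives included limma-voom (limma 3.58.1), DESeq2 1.42.0, other scalings, filters and thresholds, models of 2 genotypes at a time, a block for the replicate number, other window sizes and lengths, and leaving out each library. The alternatives for the neighbours and lists under these settings, and levels without ΔTAD replicate 1, were added after seeing the data.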

Additional observations from a re-analysis of the deposited data

How the results depend on the processing

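Of the log2 fold changes of the 7 tested genes under the alternatives that gave one, 373 kept direction and side of the threshold, 5 gained and 4 lost the call, and 3 turned in sign. The last were Ccl5 in ΔTAD against wild-type macrophages without wild-type replicate 2 (0.28) and without ΔTAD replicate 2 (0.07), and Ccl6 in knock-out against ΔTAD macrophages without ΔTAD replicate 3 (0.021). Leaving out 1 library, these values ranged from −0.47 to 0.28 for that Ccl5 difference and from −0.77 to 0.021 for that of Ccl6. With at least 10 counts in every library Ccl2, Ccl5, Ccl6 and Ccl7 were not tested, so that 0 of the 9 genes were called higher and 2 lower in knock-out and 3 lower in ΔTAD macrophages. With a minimum change of 1 log2 unit, 2 were called lower in knock-out macrophages. Leaving out 1 library, the 9 genes called higher in knock-out macrophages numbered 0 to 1 (0 without knock-out replicate 3) and lower 4 to 5, and in ΔTAD macrophages 0 higher and 5 lower throughout. In knock-out against ΔTAD macrophages they numbered 4 higher and 0 lower throughout. The median of Ccl2 and Ccl7 then ranged from −6.39 (without knock-out replicate 2) to −4.92 in knock-out, from −6.62 to −6.49 in ΔTAD and from 0.16 (without knock-out replicate 2) to 1.62 in knock-out against ΔTAD macrophages. It was −6.30 with DESeq2 and −5.55 with limma-voom in ΔTAD macrophages, and 0.81 and 0.54 in knock-out against ΔTAD macrophages. The median of the Ccl3 cluster ranged from −0.28 to −0.20, −1.19 to −1.04 and 1.29 (without ΔTAD replicate 2) to 1.55 in the same order, and was 1.58 in the last with library size alone.

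Over all genes tested, 22.8% were called higher and 22.4% lower in knock-out and 26.3% and 23.4% in ΔTAD macrophages. In knock-out against ΔTAD macrophages these shares were 13.9% and 19.1%. Of the 25 genes beside both clusters, 3 were called higher and 10 lower in knock-out, 2 and 12 in ΔTAD, and 5 and 2 in knock-out against ΔTAD macrophages. With a minimum change of 1 log2 unit, 1 was lower in knock-out, 2 were lower in ΔTAD, and 0 were higher and 0 lower in knock-out against ΔTAD macrophages. The 2 lower became 1 with DESeq2, limma-voom, DESeq2's size factors, at least 10 counts in every library or only the 2 genotypes compared, and 0 with library size alone. Within 200 kb the counts were 1 higher and 1 lower, 1 and 3, and 1 and 0, and within 1000 kb 5 were higher in knock-out macrophages. Leaving out 1 library gave 3 higher and 8 to 11 lower, 2 and 9 to 12, and 4 to 5 and 1 to 2, the 1 without wild-type replicate 2, knock-out replicates 1 or 2 or any ΔTAD library. Of the 65 listed receptors, regulators and mediators, 44 were tested, to be read beside the same shares over all genes. Of these, 27 were called higher and 7 lower in knock-out, 24 and 11 in ΔTAD, and 13 and 13 in knock-out against ΔTAD macrophages. With a minimum change of 1 log2 unit these became 6 and 3, 7 and 6, and 5 and 2. In knock-out macrophages 4 were lower with at least 10 counts in every library, and 7 were lower in knock-out against ΔTAD macrophages with library size alone. Leaving out 1 library gave 25 to 27 and 6 to 8, 22 to 24 and 11, and 9 to 13 and 10 to 14.

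With the replicate number as a block, 1 gene beside the clusters was lower in knock-out against ΔTAD macrophages, and no other of these counts moved by over 1.5 times. Libraries with the same number correlated at −0.0717 to 0.02 in their deviations from the genotype means (9 pairs), so the numbers do not pair them. With library size alone, 2585 genes were higher and 3943 lower in ΔTAD against wild-type macrophages, against 3765 and 3350 with TMM, and 2281 and 1024 in knock-out against ΔTAD macrophages, against 1990 and 2740. Levels per kb of Ccl3 and Ccl9 in ΔTAD macrophages were then 390.1 and 169.7. With the longest transcript as the length, Ccl5 had 3.04 CPM per kb in knock-out and 1.05 in ΔTAD macrophages. Depth limits Ccl5, Ccl6, Ccl7, Ccl12 and Ccl22, which had few counts. The causes of these shifts were not tested, except where a filter removed genes from the test.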
